A study of Mus musculus with 64 samples.

Results

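Lymphocyte adhesion and signalling genes are described here as targets of transposon insertion in mouse lymphomas. The set holds 34 genes with known roles in lymphocyte surface recognition, adhesion, control of Rac and actin, and antigen receptor signalling. They were taken by gene symbol and not by a value, but the set was chosen with earlier results of these data known. Of these, 33 had at least 1 line in the deposited table, 32 under their own symbol and Ripor2 under an older symbol, among 16958 gene symbols in all. The exception was Lcp2, the SLP-76 adaptor, whose gene body overlaps another annotated gene that carries its lines in the table. The members took 783 of the 156899 insertions kept in PiggyBac (PB) tumours, 110 of 48124 in PB tails, 164 of 43813 in Sleeping Beauty (SB) tumours and 102 of 50789 in SB tails.

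The study mapped insertions in genomic DNA of 64 samples, 1 each from 30 PB tumours and 12 PB tails, and from 11 tumours and 11 tails of SB mice. The tumours are diffuse large B cell lymphomas of ITP mice, which carry an array of transposon copies together with a constitutive transposase knocked into the Rosa26 locus (Rosa26PB or Rosa26SB). For the SB crosses the transposon lines were ITP1-C or ITP2-M, while those of the PB mice are not given in the sources used here. The SB mice came from crosses in which both parents were Blm m3/m3, an allele of the helicase gene Blm, so tumours and tails of SB share it, while the Blm genotype of the PB mice is not given in the sources used here. All mice had a mixed background of C57BL/6, 129Sv and FVB. The labels give the genotype only as IMPB or IMSB, and do not give an age. The organ sampled was given for each tumour, most often mesenteric mass, mesenteric lymph node, lymph node or spleen. The transposase is not restricted to lymphocytes, and the tails, the study's control tissue, are mostly skin and bone. No RNA was measured, so the cell type could not be checked by markers, and the share of tumour cells in a sample is not known.

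PB and SB cut a transposon out of its donor array and insert it elsewhere, PB at the motif TTAA and SB at TA, and an insertion can activate or disrupt the gene that it enters. An insertion that helps a cell to grow is passed on to its daughters, so genes that carry many insertions in tumours are read as candidate drivers. The genes described here act at the surface and cortex of lymphocytes. Integrins and the selectin ligand hold a rolling cell to the vessel wall, and antigen receptors start kinase signalling through adaptors. Dock2 and its partner Elmo1 load the GTPase Rac, which drives actin polymerisation and migration. Tumour and tail also differ in tissue, and selection in the tumour and a difference between tissues cannot be told apart by this comparison.

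The sequences below show the motif positions inside the members that were hit in the most samples in PB (ties taken in genome order, Cd74 not shown), followed by those of the insertions that ranked among the 10 with the most reads in their sample. Each is written 5′ to 3′ on the strand of the gene, from RefSeq's GRCm38.p6 genome (coordinates of the motif on GRCm38), and capitals mark the motif. All lie in introns. The list of positions hit in the most samples was cut short. Other positions in Fyn and Elmo1, also hit in 3 tumours, come later in genome order and are not shown.
Arhgdib, chr6:136940130-136940133, minus strand, in 3 tumours and 2 tails: gagaagaataTTAAggaagtgttc
Arhgdib, chr6:136941210-136941213, minus strand, in 1 tumour and 3 tails: tgagcacactTTAAagagactgtt
Arhgap15, chr2:43806193-43806196, plus strand, in 3 tumours: taaatactgtTTAAaaatagctca
Stk4, chr2:164078132-164078135, plus strand, in 3 tumours: ctcctgaagcTTAAgaggagtttc
Stk4, chr2:164084068-164084071, plus strand, in 3 tumours: ttttttgccgTTAAgaatgattcg
Cd53, chr3:106788178-106788181, minus strand, in 3 tumours: agaaatgaaaTTAAgcaagagaga
Elmo1, chr13:20409839-20409842, plus strand, PB, 2519 reads in 1 tumour: cagtcatttaTTAAgtacgatcat
Fyn, chr10:39387913-39387916, plus strand, PB, 1027 reads in 1 tumour: atcccgcagtTTAAgcagatatga
Stk17b, chr1:53774706-53774709, minus strand, PB, 3495 reads in 1 tumour: aagtttgcttTTAAagcaaaagct
Ripor2, chr13:24668590-24668593, plus strand, PB, 603 reads in 1 tail: cctagggtccTTAAagaacagtgg
Elmo1, chr13:20366276-20366277, plus strand, SB, 589 reads in 1 tumour: ggttgttattTAtctcagtatc

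The bases beside the motif were compared between member insertions and all insertions of the same transposon. In PB, T stood 3 bases before the motif at 43.8% of the 821 member positions and at 45.0% of all 195142 positions. In SB, A stood there at 69.5% of the 266 member positions and at 74.5% of all 93837. The systems differed more from each other at this place than the members did from all insertions.

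Insertions were counted once per sample and motif position, on autosomes other than chromosome 14, which was taken as the donor chromosome. A sample held a median of 4284 such insertions in PB tumours (757 to 10800), 3548 in PB tails (2035 to 7362), 3836 in SB tumours and 4361 in SB tails. Reads per sample ranged from 55502 to 5721832 over all 64, with a median of 136579 in PB tumours. Without the PB tumour and the PB tail with the most reads, the same 3 members were called in the comparison with tails given below. Any 2 PB samples shared at most 1.71% of the positions of the smaller of them, and any 2 SB samples at most 1.30%. Reads of a PCR product do not count molecules, so insertions and not reads were compared. The bounds given for counts of 0 cover the counting error of that count only.

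The members took a larger share of the insertions in tumours than in tails in both systems. In PB tumours the share was 0.501% ± 0.131 (SD, n = 30), with a lowest value of 0.256%, a median of 0.501% and a highest of 0.835%. In PB tails it was 0.241% ± 0.0938 (SD, n = 12), between 0.149% and 0.463% with a median of 0.211%. The tumour mean was 2.08 times the tail mean, 17 of 30 tumours lay above every tail, all 30 lay above the tail median, and 7 of 12 tails lay below every tumour. No p is given for these shares, because the members were chosen with earlier results of these data known.

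In SB tumours the share was 0.342% ± 0.112 (SD, n = 11; 0.160% to 0.455%, median 0.395%). In SB tails it was 0.209% ± 0.0915 (SD, n = 11; 0.0916% to 0.374%, median 0.185%). The tumour mean was 1.63 times the tail mean, 6 of 11 tumours lay above every tail and 9 of 11 above the tail median, so the groups overlapped more than in PB. Without Elmo1 and Arhgap15, the members with the most insertions, the shares were 0.344% ± 0.105 and 0.157% ± 0.102 in PB tumours and tails, and 0.208% ± 0.0859 and 0.157% ± 0.0790 in SB (SD). The SB difference thus lay for the larger part in those genes.

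**Figure D1:**
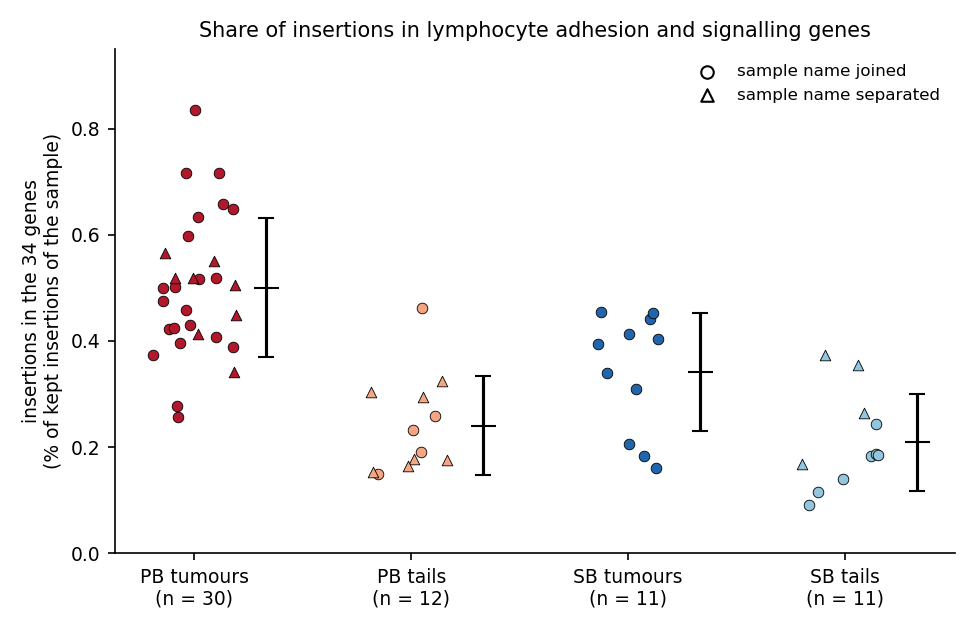
Each point is 1 sample, placed by its group (horizontal) and by the percentage of its kept insertions that lie in the 34 genes (vertical); bars give the mean ± SD, and the point's shape gives the form of the sample name. PB tumours averaged 0.501% against 0.241% in PB tails, and SB tumours 0.342% against 0.209% in SB tails, with overlap between groups in both systems.

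Sample names were written in 2 forms, joined and separated, and the labels do not say whether the form marks a batch. Within joined names, the PB share was 0.507% ± 0.147 (SD) in 22 tumours and 0.258% ± 0.121 in 5 tails. Within separated names it was 0.483% ± 0.0764 in 8 tumours and 0.228% ± 0.0764 in 7 tails. All 11 SB tumours had joined names, and the 7 SB tails of that form averaged 0.163% ± 0.0517, against 0.290% ± 0.0947 in the 4 SB tails with separated names. By organ, the mean share in PB tumours was 0.498% ± 0.150 in 9 mesenteric masses, 0.523% ± 0.102 in 6 mesenteric lymph nodes, 0.506% ± 0.0994 in 5 lymph nodes and 0.464% ± 0.163 in 6 spleens. These organs differed by less than the spread between the tumours of each.

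The share of insertions that fell in any annotated gene also moved with tissue. It was 57.8% ± 2.03 in PB tumours and 53.8% ± 1.43 in PB tails, and 49.7% ± 1.19 in SB tumours and 46.6% ± 1.17 in SB tails (SD). Counted within genes alone, the members took 0.868% ± 0.227 of PB tumour insertions and 0.446% ± 0.168 of PB tail insertions. In SB the values were 0.687% ± 0.221 and 0.448% ± 0.191. Insertions in PB tumours were carried by fewer reads than in PB tails, with a median of 6 against 21 over all genes and of 6 against 22 in the members. With insertions of at least 10 reads alone, the member share was 0.473% in PB tumours and 0.232% in PB tails.

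Tumours and tails were next compared gene by gene with edgeR's quasi-likelihood test on insertions per sample, over every gene with at least 10 insertions in the samples of a system. In PB this fit tested 3306 genes and called 71 higher (2.15%) and 76 lower (2.30%) in tumours after Benjamini-Hochberg adjustment at 0.05. Of the members, 22 had enough insertions to be tested, and 3 were called higher and none lower: Elmo1, Dock2 and Cd74. A further 7 members were higher at an unadjusted p under 0.05 without passing the adjustment, and none was lower. Over all genes, 652 had an unadjusted p under 0.05, and 411 of these (12.4% of the genes tested) were higher. The median log2 fold change was 1.06 over the 22 members tested and 0.20 over all 3306 genes. Of the 22 members, 19 lay above 0, against 59.6% of all genes. The filter of at least 10 insertions counts both tissues together. Cd74, Cd53 and Cd84 had no insertion in PB tails, so only their tumour insertions could bring them into the test. The members were also chosen with earlier results of these data known, so these counts are description only. Under TMM normalization the calls were 126 higher and 45 lower, with the median of all genes moved up by 0.20 (log2) and the same 3 members called. None of the 3 passed among the 22 tumours and 5 tails with joined names alone, where 33 genes were called and the log2 fold changes were 1.65 for Elmo1 and 2.59 for Dock2, or when a gene was counted once per sample, where 1 gene was called.

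In SB the fit tested 1124 genes and called 7 higher (0.623%) and 2 lower (0.178%). None of the 8 members tested was called by edgeR, while 2 were higher at an unadjusted p under 0.05, as were 64 of all genes tested (5.69%), and DESeq2 also called none. The difference between the systems in their tumour and tail change was tested over 4292 genes, and no gene was called (0%) by edgeR, where 395 genes and 2 members, Dock2 and Arhgap15, had an unadjusted p under 0.05. No member is therefore described as particular to PB or to SB.

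A separate measure set the insertions in each gene body against the number expected from its motif sites and the insertions on its chromosome, by the study's selection test without its mutagenesis model. This test used 1 group at a time, so it does not compare tumours with tails. In PB tumours it called 1121 of 22558 genes (4.97%) and 13 of the 34 members, and in PB tails 282 genes (1.25%) and 2 members. For SB it called 95 of 23859 genes (0.398%) and 1 member in tumours, and 43 genes (0.18%) and no member in tails. The call needs a Bonferroni-adjusted one-sided Wald p under 0.05, and on simulated data this form called more unchanged genes than that threshold allows. When p came from exact Poisson probabilities, 646 genes and 10 of the 13 members stayed in PB tumours, without Arhgdib, Cd53 and Ripor2. By that test no member was called in PB tails, and Elmo1 was called in SB tumours. In SB tails 4 members had an unadjusted p under 0.05, and none was called by the exact Poisson test or with Benjamini-Hochberg adjustment either. Over all members, 801 insertions stood against 330 expected in PB tumours and 112 against 99.5 in PB tails, and in SB 164 against 86.1 in tumours and 103 against 93.9 in tails. The ratios of observed to expected were 2.43 and 1.13 in PB tumours and tails and 1.91 and 1.10 in SB, beside 1.38, 1.31, 1.19 and 1.12 over all genes tested.

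**Figure D2:**
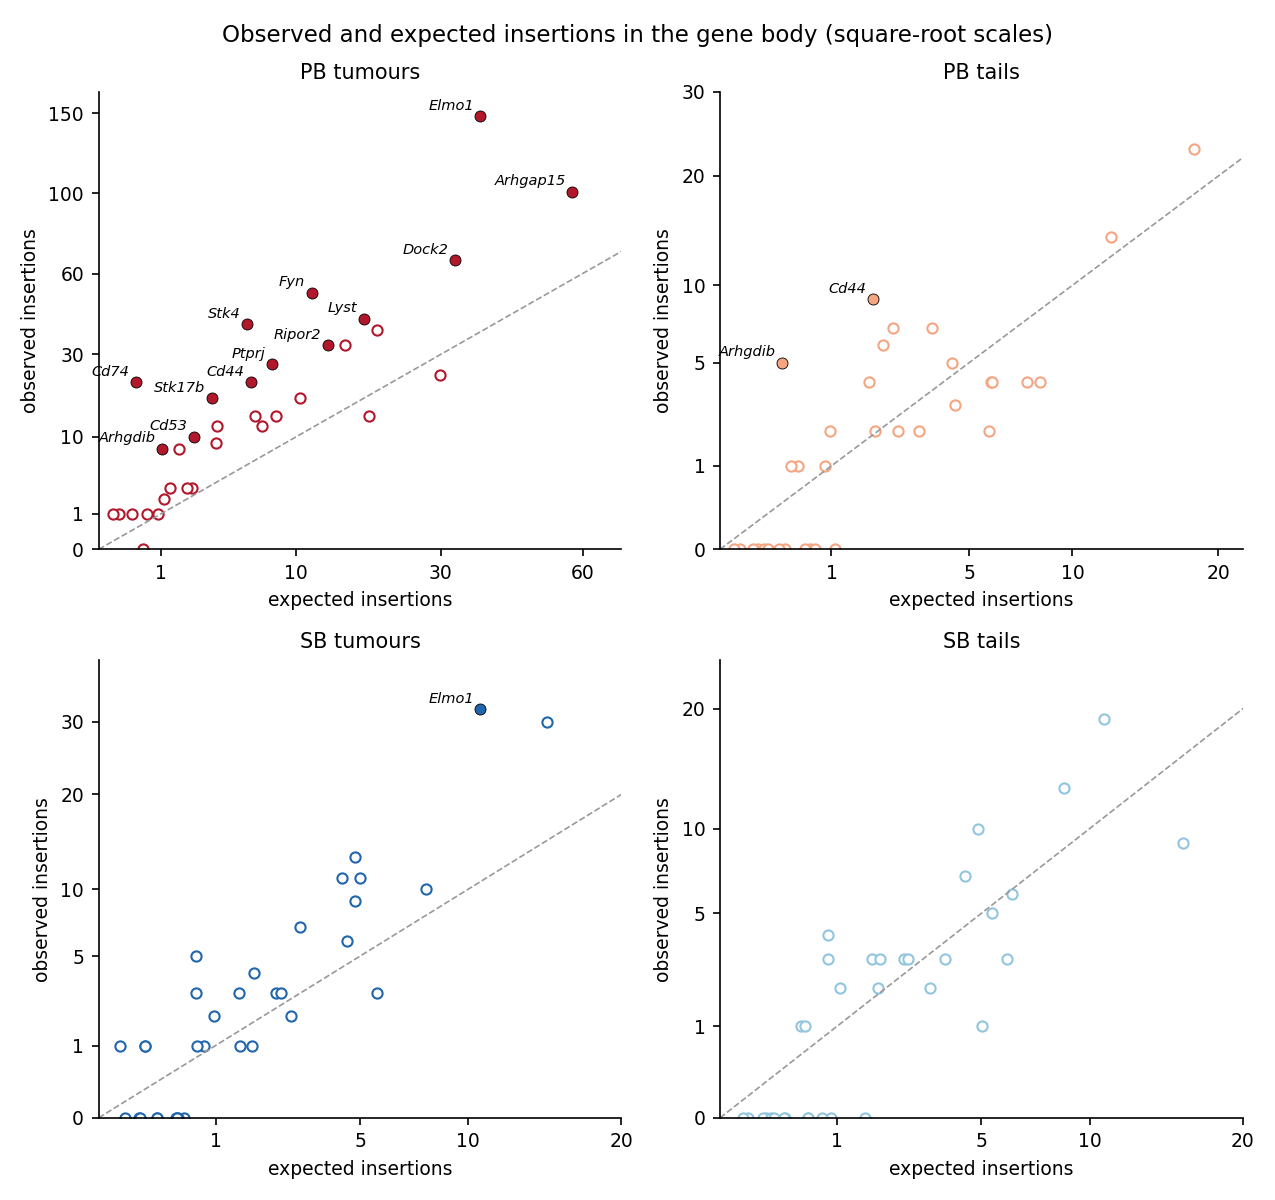
For each of the 4 groups, each point is 1 of the 34 genes, with the insertions expected from its motif sites on the horizontal axis and the insertions observed in its body on the vertical axis, both on square-root scales; the dashed line marks equality, and filled, named points passed the selection test. In PB tumours 31 of the genes lie above the line and 13 are filled, in PB tails 14 lie above it and 2 are filled; of all genes tested, 44.7% lay above the line in PB tumours and 31.5% in PB tails.

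The genes of Rac and actin control held the most insertions, with 432 in their bodies in PB tumours against 179.5 expected, and 58 against 54.3 in PB tails. Their share of all insertions was 0.272% ± 0.0957 in PB tumours and 0.124% ± 0.0566 in PB tails, and 0.219% ± 0.0700 in SB tumours and 0.118% ± 0.0619 in SB tails (SD). Elmo1, the adaptor that joins a DOCK protein to load Rac, had the most of any member. Its insertions per PB tumour ranged from 0 to 14 with a median of 4.5 and totalled 148, and 29 of 30 tumours carried at least 1. In PB tails they ranged from 0 to 3 with a median of 1, totalled 14 and were found in 8 of 12 samples. Per 10000 kept insertions, the Elmo1 rate was 9.47 ± 5.30 in tumours and 3.18 ± 3.51 in tails (SD), and 14 tumours lay above every tail. The log2 fold change was 1.60 (SE 0.40, edgeR adjusted p = 0.00404).

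Elmo1 was also the single member called by the selection test in SB tumours, with 32 insertions against 10.7 expected in 10 of 11 tumours. SB tails held 19 against 10.8 expected, also in 10 of 11 samples. The rate was 7.46 ± 4.10 per 10000 in SB tumours and 3.74 ± 2.28 in SB tails (SD), with 6 of 11 tumours above every tail, and edgeR's log2 fold change of 0.89 (SE 0.48) did not pass the test (adjusted p = 0.577). In PB tumours Elmo1 held 3.97 times the expected insertions, and in PB tails 1.14 times.

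Dock2, the haematopoietic exchange factor for Rac and a partner of Elmo1, was hit in 25 of 30 PB tumours and 4 of 12 PB tails. Its insertions ranged from 0 to 8 per tumour with a median of 2 and totalled 66, and ranged from 0 to 1 per tail and totalled 4. The rate was 4.24 ± 3.27 per 10000 in PB tumours and 0.668 ± 1.04 in PB tails (SD), with 17 of 30 tumours above every tail. The log2 fold change was 2.06 (SE 0.57, edgeR adjusted p = 0.0138). In SB the groups lay within the spread, with 10 insertions in 5 of 11 tumours and 13 in 7 of 11 tails, a log2 fold change of -0.21 (SE 0.63, adjusted p = 0.937). That sign rested on the 4 tails with separated names, which averaged 6.45 per 10000, against 1.52 in the 7 tails and 1.96 in the 11 tumours with joined names. The SB log2 fold change was 0.50 with joined names alone and 0.14 with all chromosomes kept. The unadjusted p for the difference between the systems, computed over all samples, was 0.00876 and the adjusted p was 0.404.

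Both Elmo1 and Dock2 carried insertions in 25 of 30 PB tumours, where 29 carried one in Elmo1. The pair was found in 4 of 12 PB tails, while 4 tails had neither. Because a sample is a mass of cells, insertions in both genes need not lie in the same cell. In SB, 4 of 11 tumours and 6 of 11 tails had both.

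Arhgap15, a GTPase-activating protein that switches Rac off, is the longest member, and was hit in every group. In PB it was hit in 26 of 30 tumours (101 insertions, 0 to 11 per tumour, median 3) and in 10 of 12 tails (24 insertions, 0 to 5 per tail, median 2). The rates of 6.20 ± 4.71 and 5.21 ± 3.94 per 10000 (SD) did not differ by the test, with a log2 fold change of 0.35 (SE 0.37, edgeR adjusted p = 0.654). In SB the rates stood further apart, with 5.89 ± 4.36 in tumours and 1.55 ± 1.30 in tails, and 9 of 11 tumours above every tail. The SB log2 fold change of 1.80 (SE 0.54) gave an unadjusted p of 0.000859 and an adjusted p of 0.0743. It passed the test in SB under 3 alternatives (insertions of at least 10 reads, genes with at least 30 insertions, and all chromosomes kept), with adjusted p-values over 11 alternatives between 0.00443 and 0.998. In PB tumours it was called by the selection test, with 101 insertions against 57.4 expected, while SB tails held 9 against 15.7.

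Ripor2 was found in 15 PB tumours (24 insertions) and 1 PB tail (1 insertion). It had 0 to 5 insertions per tumour with a median of 0.5. Its log2 fold change was 1.96 (SE 0.72) with an edgeR adjusted p of 0.0895. Its RefSeq gene body held 33 insertions (13.4 expected) in the tumours of PB and 3 (4.44 expected) in the tails, and counted by that body the log2 fold change was 1.43. Arhgdib, a lymphoid inhibitor of GTPase exchange, ran the other way, with 8 insertions in 8 of 30 PB tumours and 5 in 4 of 12 PB tails (log2 fold change -0.76, SE 0.58, adjusted p = 0.559). It was above expectation by the selection test in both PB groups, with 8 against 1.03 in tumours and 5 against 0.309 in tails but in neither by the exact test, and had no insertion in SB. The exchange factors Dock8 and Dock10 were hit in 16 and 21 PB tumours and in 4 and 3 PB tails, without passing either test. Vav1, Rac2 and Coro1a held between 1 and 3 insertions in the 30 PB tumours and none in PB tails.

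**Figure D3:**
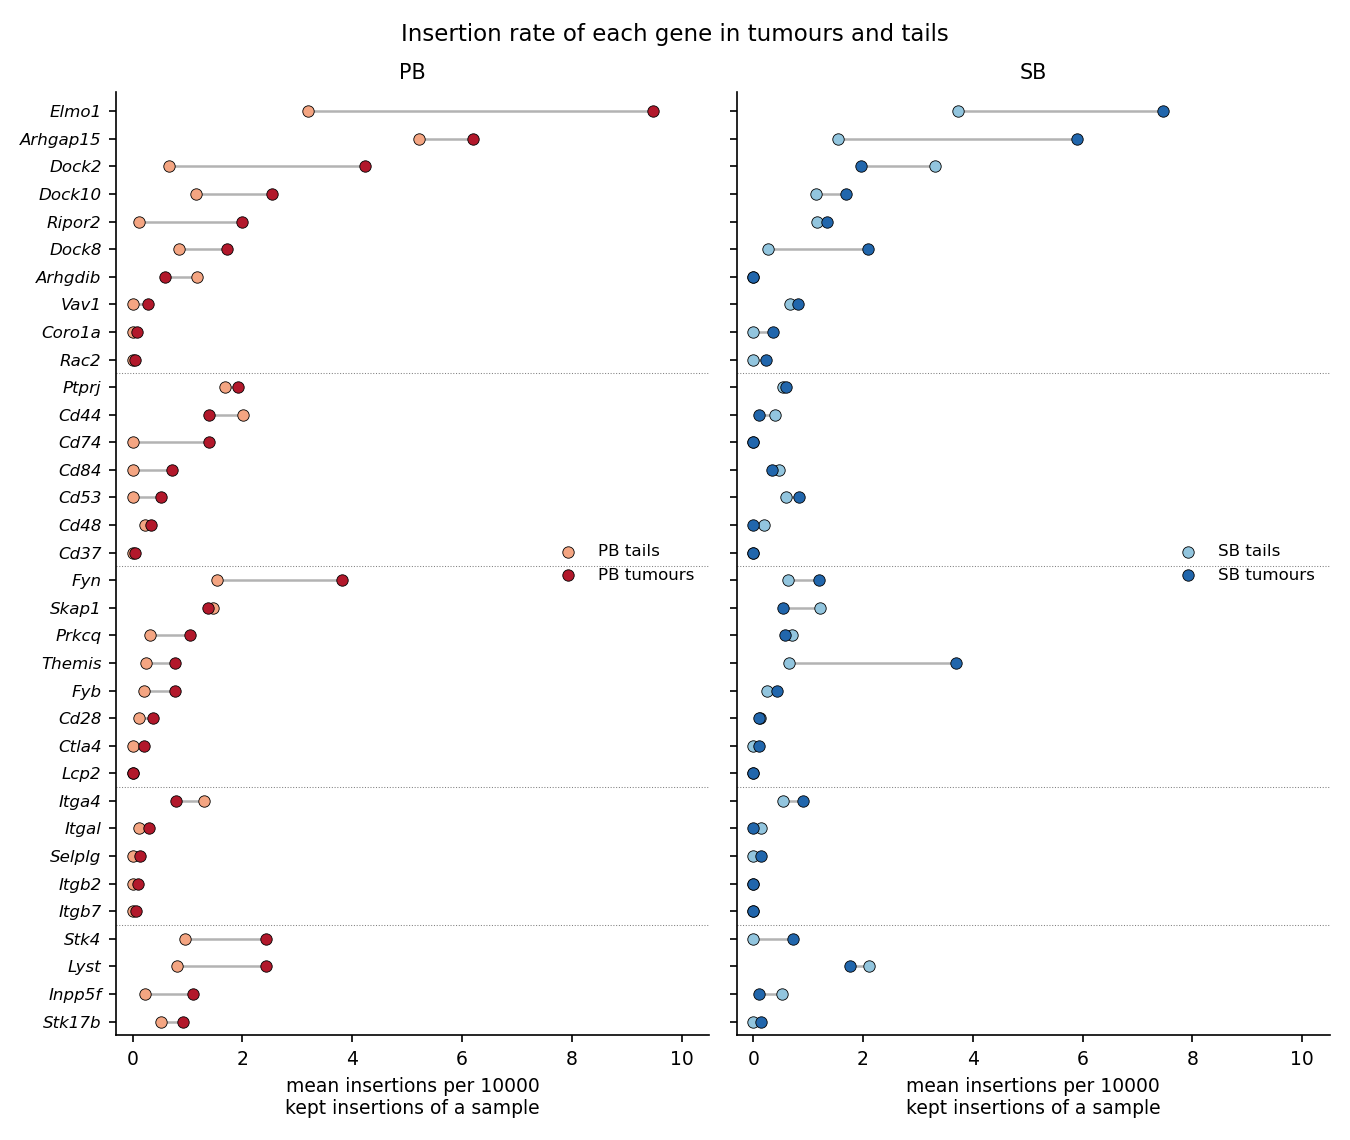
Each row is 1 of the 34 genes, grouped by role between dotted lines (Rac and actin control; surface receptors; antigen receptor adaptors, kinases and costimulation; integrins and selectin ligand; other kinases, trafficking and phosphoinositide), and the horizontal axis gives the mean number of insertions per 10000 kept insertions of a sample. Elmo1 moved from 3.18 in PB tails to 9.47 in PB tumours, and Dock2 from 0.668 to 4.24, while in SB the Dock2 means of tumours and tails lay within their spread and their order changed with joined names alone.

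Among the surface receptors, Cd74, the invariant chain of MHC class II and a receptor for the cytokine MIF, stood apart by its density of insertions. Its 22 insertions lay at 13 positions in 11 of 30 PB tumours, with 0 to 4 per tumour and a median of 0, in a gene of 8.80 kb. A position hit in several tumours was counted in each of them, also in both tests. None of the 48124 PB tail insertions lay in it, which allows up to 0.623 per 10000. The pooled rate in tumours was 1.40 per 10000, or 2.25 times that limit, with the counting error of the tumour count left out. The edgeR adjusted p was 0.0199, but 0.0551 with the form of the sample name as a block and 0.0829 with no filter on low counts, so the call depended on these settings. No SB sample of either tissue had an insertion there. The expected number in PB tumours was 0.356, which the observed exceeded 61.8-fold. Of the 22 insertions, 11 had the strand of the gene, and 18 lay in the first intron, which holds 58.1% of its TTAA sites. Without the tumour with the most, 18 insertions remained. By name form, 10 of 22 tumours with joined names were hit and 1 of 8 with separated names.

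Cd74 also held 3 of the 6 member insertions that ranked among the 10 with the most reads in a PB tumour. A position in its first intron carried 3308 reads in PB tumour 11 and 2051 reads in PB tumour 6, and another in that intron carried 2729 reads in PB tumour 21, 2.59% of the reads of that sample. Each of these positions was found in further tumours, at between 5 and 504 reads. Whether reads passed between libraries was not tested.

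The tetraspanin Cd53 and the SLAM family receptor Cd84 were hit in 8 and 10 of 30 PB tumours and in no PB tail. With 10 and 12 insertions, their pooled tumour rates were 1.02 and 1.23 times the limit set by the count of 0 in tails. That leaves out the counting error of the tumour counts, so a higher rate in tumours is not shown. Neither passed the edgeR test (adjusted p = 0.149 and 0.111). Cd53 was above expectation by the selection test in PB tumours but not by its exact form, with 10 insertions against 2.31, at most 2 per tumour. The hyaluronan receptor Cd44 was called by the selection test in tumours (22 against 5.95 expected) and in tails (9 against 1.87), and its rates of 1.39 ± 1.62 and 2.01 ± 2.67 per 10000 overlapped (log2 fold change -0.37, SE 0.53, adjusted p = 0.762). Ptprj, the receptor tyrosine phosphatase CD148, had 27 insertions in 18 PB tumours (7.68 expected) and 7 in 5 PB tails, with 0 to 3 per sample in both and a log2 fold change of 0.21 (SE 0.55, adjusted p = 0.877). In PB tumours Cd44 and Ptprj passed the selection test in its Wald and its exact Poisson form, without a measured difference between tumour and tail. In PB tails Cd44 passed the Wald form alone, and Ptprj (2.42 expected) passed neither. Cd48, a SLAM family ligand, had 6 insertions in PB tumours, and Cd37, a B cell tetraspanin, had 1.

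Integrins and the selectin ligand received few insertions. Itga4, the alpha chain of VLA-4, had 12 in 10 PB tumours and 6 in 3 PB tails (log2 fold change -0.55, SE 0.57, edgeR adjusted p = 0.649), and 4 in SB tumours. Itgal, Itgb2, Itgb7 and Selplg together held 7 insertions in PB tumours and 1 in PB tails. Their bodies were expected to receive between 0.593 and 1.30 each over the 30 tumours, so this depth could not show a modest change. None was called by either test in any group.

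The antigen receptor group held Fyn, the Src family kinase that phosphorylates receptor motifs, with 52 insertions in 25 of 30 PB tumours (0 to 4 per tumour, median 1) and 7 in 6 of 12 PB tails. Its body was expected to hold 11.6 in PB tumours, and the selection test called it there. The rates of 3.82 ± 3.29 and 1.53 ± 2.07 per 10000 (SD) gave a log2 fold change of 1.07 (SE 0.53) and an edgeR adjusted p of 0.231. Themis, an adaptor of the T cell receptor, had 14 insertions in 10 PB tumours and 2 in 1 PB tail (log2 fold change 0.78, SE 0.66, adjusted p = 0.573). In SB it had 13 insertions in 7 of 11 tumours and 3 in 3 of 11 tails (log2 fold change 1.89, SE 0.70, unadjusted p = 0.00731, adjusted p = 0.235), and the difference between the systems had an edgeR adjusted p of 0.852. The adaptors Skap1 and Fyb and the kinase Prkcq had 24, 12 and 14 insertions in PB tumours, and none of them was called. Ctla4 and Cd28, the inhibitory and activating receptors for B7 ligands, had 5 insertions each in PB tumours, and all of those given to Ctla4 lay outside its RefSeq body. The body of Lcp2 held 9 insertions in 7 PB tumours (3.50 expected) and 1 in PB tails.

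In the last group, Stk4, the Hippo pathway kinase MST1 needed for lymphocyte survival and adhesion, had 40 insertions in 22 of 30 PB tumours and 4 in 4 of 12 PB tails. They ranged from 0 to 4 per tumour with a median of 1, and its log2 fold change was 1.35 (SE 0.59, edgeR adjusted p = 0.161). The selection test set 40 against 5.64 expected in PB tumours, a ratio of 7.09 that Cd74 and Arhgdib alone exceeded among the 13 called. The apoptosis-related kinase Stk17b had 18 insertions in 13 PB tumours (3.28 expected) and 2 in PB tails, with 0 to 2 per tumour and a log2 fold change of 1.05 (SE 0.67, adjusted p = 0.414). Lyst, the lysosomal trafficking regulator lost in Chediak-Higashi syndrome, had 42 in 19 PB tumours (18 expected) and 4 in PB tails, with 0 to 5 per tumour, a median of 1 and a log2 fold change of 1.41 (SE 0.59, adjusted p = 0.140). In SB, Lyst had 9 in tumours and 10 in tails. The phosphatase Inpp5f had 14 in 13 PB tumours and was not called.

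Insertions in the members lay almost all in introns, at 97.6% of 783 in PB tumours, 95.5% in PB tails, 97.0% in SB tumours and 98.0% in SB tails. In PB tumours 4 lay in coding exons. The strand given in the table matched that of the gene for 395 insertions and opposed it for 388 in PB tumours, and for 71 and 93 in SB tumours. Whether that strand is the orientation of the transposon or that of the read is not given in the sources used here.

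Within single genes, some introns held a larger share of the insertions than of the motif sites. Intron numbers follow the RefSeq transcript with the most exons. In PB tumours 41 of the 148 Elmo1 insertions (27.7%) lay in the first intron, which holds 16.8% of its TTAA sites, and were found in 20 tumours, 16 on the strand of the gene and 25 opposed. In PB tails 5 of the 14 Elmo1 insertions lay in the same intron. Introns 15 and 16 held 22 and 20, with 16% and 21.6% of the sites. In SB tumours the first intron of Elmo1 held 1 of 32. In Dock2, the first intron held 16 of 66 PB tumour insertions (24.2%) in 12 tumours with 6.01% of the sites, and intron 27 held 22 with 32.4% of the sites. The PB tail insertions of Dock2 were too few to compare. No insertion of any group was found in Dock2 between 101 and 244 kb from its start, where 95.7% of the bases are unknown in the reference.

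In Stk4, 8 insertions in 8 PB tumours lay in the first intron (20% with 6.68% of the sites), and 22 in intron 10, which holds 42.6% of the sites. In Fyn, 25 of 52 lay in intron 3 (48.1% with 25.2% of the sites). Lyst had 12 of 42 in the first intron (28.6% with 11.9% of the sites). Arhgap15 insertions were closer to its sites, with 21.8% in intron 6, which holds 29.8%. Over all members, 71 PB tumour insertions (9.07%) and 11 PB tail insertions (10%) lay within 5 kb of the gene start. These shares are given without a test.

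**Figure D4:**
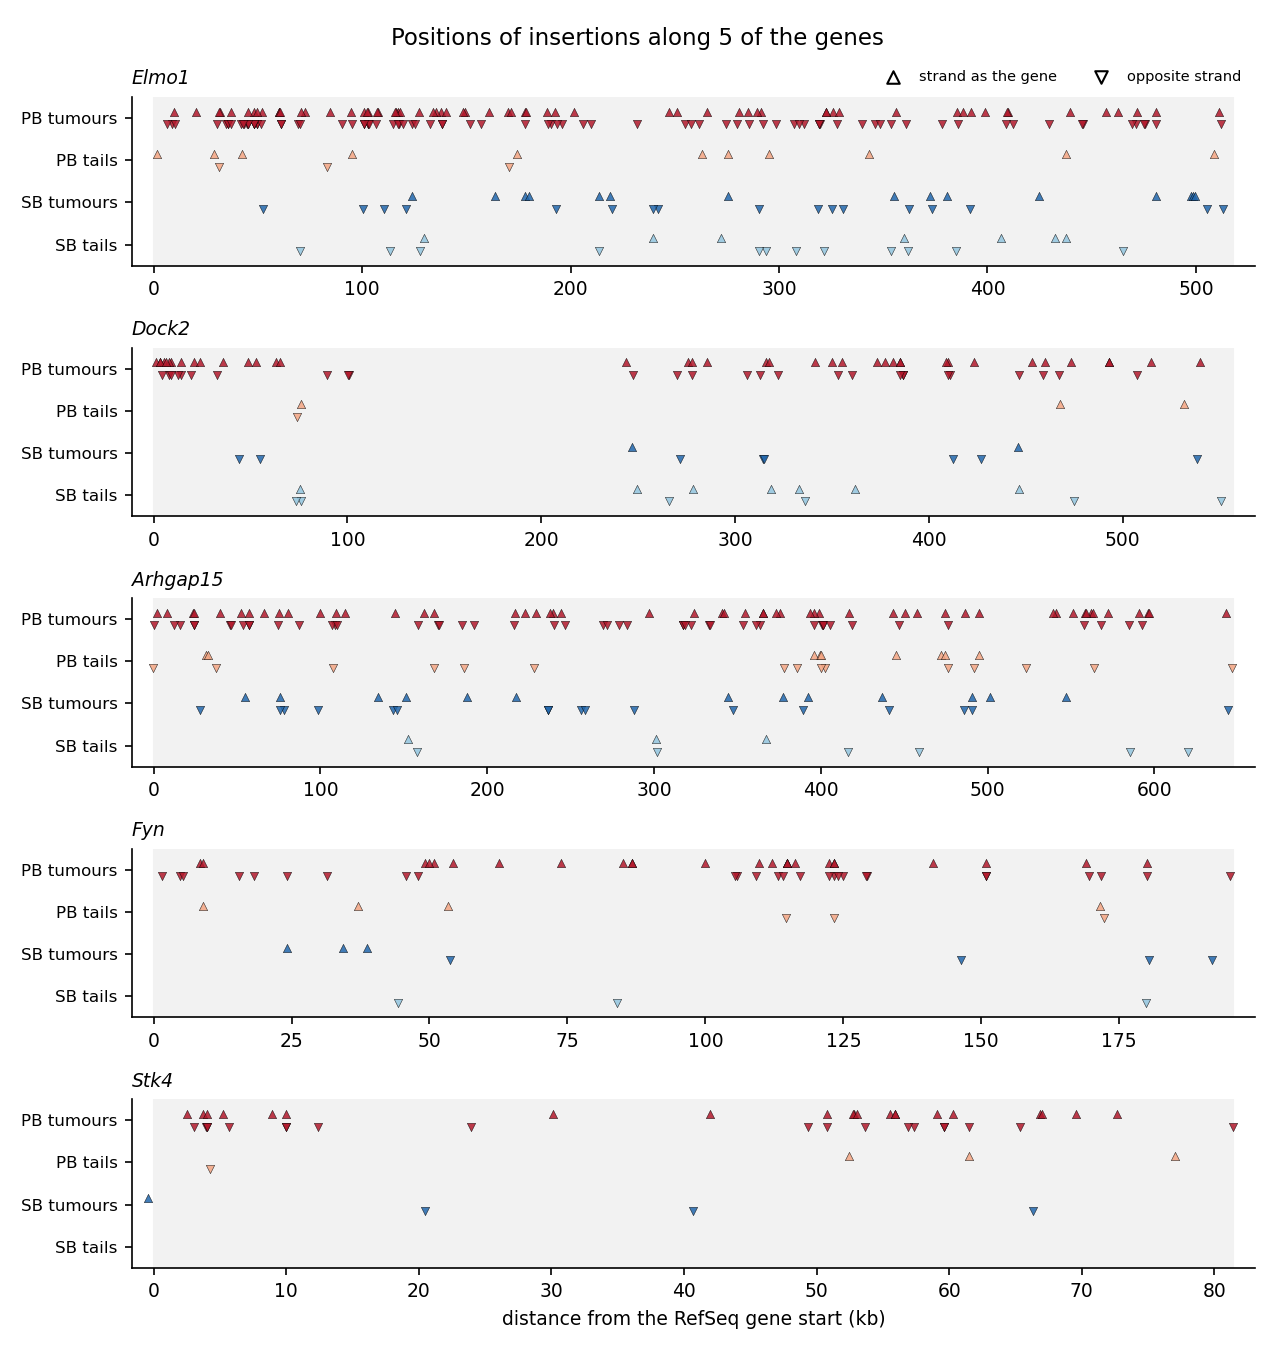
Each triangle is 1 insertion, placed by its distance from the RefSeq gene start in kb (horizontal) and by group (vertical), and pointing up where its strand is that of the gene; the shaded band is the gene body. PB tumour insertions of Elmo1 are dense in the first intron, which holds 41 of 148, as it does 5 of 14 in PB tails, and Dock2 shows an empty stretch from 101 to 244 kb, where the reference sequence is unknown.

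Positions hit in more than 1 sample made up 56 of the 821 PB member positions (6.82%) and 4.29% of the PB positions elsewhere, with a most of 5 samples in the members. None of the 266 SB member positions was hit in more than 1 sample, against 0.574% elsewhere. The Arhgdib position on chromosome 6 with the most samples, whose sequence is given above, carried 16, 4 and 2 reads in 3 PB tumours and 52 and 41 in 2 PB tails. The second Arhgdib position carried 7 reads in 1 tumour and 20, 7 and 2 in 3 tails. Both lie in the first intron, within 1.77 kb of the gene start. Positions in Arhgap15, Stk4 and Cd53 printed above carried between 3 and 21 reads in each tumour, so none was abundant.

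Few member insertions ranked among the 10 with the most reads in their sample. They numbered 6 of 302 in PB tumours (1.99%) and 1 of 122 in PB tails, and in SB 1 of 110 in tumours and 0 of 110 in tails, where a count of 0 allows up to 3. The members' pooled share of all insertions was 0.499% in PB tumours and 0.229% in PB tails, where the 1 insertion made 0.82%. Among the 100 with the most reads in each PB tumour, the members held 18 of 3025 (0.595%). The PB tumour insertions were 3 in Cd74 and 1 each in Elmo1, Fyn and Stk17b. That of Elmo1 lay in intron 15, opposed the gene and took 1.80% of the reads of a mesenteric lymph node, where it ranked 2, and its position carried 7 reads in a further tumour. That of Stk17b took 2.0% of the reads of another mesenteric lymph node at rank 9, and the same position carried 4 reads in a further tumour. In SB, an Elmo1 insertion in intron 14 took 0.450% of the reads of a spleen, at rank 7. Measured by reads and not by insertions, the members held 0.670% ± 0.731 of the reads in PB tumours and 0.271% ± 0.157 in PB tails (SD), where the spread of the tumours exceeded the difference.

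Other genes of the same pathways were counted from lists of genes that are not members. Of 28 other T cell receptor and costimulation genes listed, 8 had at least 10 insertions in PB and could be tested. Beside 2.15% of all 3306 genes tested in PB, 4 of these 8 were called higher, and none lower. These were Tox, a nuclear regulator of T cell exhaustion (179 insertions in 27 PB tumours and 4 in PB tails, log2 fold change 3.38, SE 0.49, adjusted p = 4.31e-09), the SLAM receptors Slamf1 (51 against 1) and Slamf6 (53 against 1), and the inhibitory receptor Btla (22 against 0). The edgeR adjusted p-values of Slamf1, Slamf6 and Btla were 0.00231, 0.00231 and 0.0199. Of 9 other leukocyte adhesion genes tested, 1 was called, Apbb1ip, the Rap1 effector RIAM that activates integrins (34 against 0, edgeR adjusted p = 0.00294). Btla and Apbb1ip had no insertion in PB tails, so only their tumour insertions could bring them into the test. Slamf1 and Slamf6 came into it almost wholly through their tumour insertions. The calls of these genes are therefore description only. None of the 13 other Rac and actin genes tested was called by edgeR, where 3 had an unadjusted p under 0.05.

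By share of insertions, these lists did not all move alike. The other T cell receptor and costimulation genes took 0.335% ± 0.204 in PB tumours and 0.100% ± 0.0520 in PB tails. In SB they took 0.151% ± 0.0857 and 0.0530% ± 0.0245 (SD). That list includes Bach2, Btla, Slamf1 and Slamf6, and without RNA its share is not read as a mark of T cells. The other Rac and actin genes took 0.190% ± 0.0908 and 0.183% ± 0.0583 in PB, and the other adhesion genes 0.120% ± 0.0650 and 0.104% ± 0.0815. The B cell genes took 0.0723% ± 0.0519 in PB tumours and 0.0238% ± 0.0250 in PB tails, with 4 tested and none called (edgeR; 1 with an unadjusted p under 0.05). No list got a test of its own, and the lists were chosen with earlier results of these data known.

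Epidermal genes, by contrast, took a smaller share in tumours. It was 0.0284% ± 0.0209 in PB tumours and 0.141% ± 0.0766 in PB tails, and 0.0123% ± 0.0167 and 0.0431% ± 0.0335 in SB (SD). Dsp and Dsc3, components of desmosomes, were called lower in PB tumours (2 and 3 insertions against 10 and 7 in tails, edgeR adjusted p = 0.00119 and 0.0442). The dermal matrix genes took 0.0814% ± 0.0444 in PB tumours and 0.136% ± 0.0332 in PB tails, and the collagen gene Col5a2 was called lower (4 against 12, adjusted p = 0.00132). In SB the dermal share was about level, at 0.0582% ± 0.0512 in tumours and 0.0622% ± 0.0476 in tails (SD). The part of tissue in the difference of the member share between tumours and tails was not tested.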

How the data were processed

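Transposon insertion sites in 64 mouse samples were taken from a table deposited by the authors, which gives for each of 385883 lines a position on GRCm38 (mm10), a strand, a gene symbol and a count of reads. Per the labels, DNA was sheared and transposon-genome junctions were amplified by splinkerette PCR. The authors deposited these read counts without normalization, and the lowest was 2. The aligner and insertion caller are not given in the sources used here, and their effect was not tested. The table has 1 more column of per-sample values, a normalized coverage, which was left aside because its unit is not stated.

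Here, a position was assigned to the TTAA (PB) or TA (SB) that holds it, or to the nearest within 5 bp, and counted once per sample. Sex chromosomes and the donor chromosome were left out. The donor was taken to be chromosome 14, the autosome with the most lines per Mb in each system, since the sources used here do not name it. Genes came from the table's symbols, 1025 of them updated by a RefSeq synonym on the same chromosome. Samples were grouped by their labels, with 1 sample per mouse as far as these tell.

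Genes with at least 10 insertions were tested with edgeR's quasi-likelihood test, the kept insertions serving as library size. Fold changes are log2 values of tumours over tails, and an SE is the fold change over the root of the test's F. The selection test was a Poisson model with motif sites as rate, Bonferroni adjustment at 0.05 and a minimum of 3 samples carrying an insertion (or 5% of the group, if more). A count of 0 was bounded at 3 counts over the group. Both tests were tested on simulated data. There the Wald form of the selection test also called some unchanged genes, more than its threshold allows, and the exact Poisson form called none. The simulated counts were drawn from the Poisson rates that the exact form assumes, so they cannot show its errors where insertions depart from those rates. In the data, the exact form called 83 genes in PB tails and 13 in SB tails. Members called by either test in tumours were given in full. Members and gene lists were chosen with earlier results of these data known. Alternatives covered the normalization, tool, filters, read minimum, gene models and samples.

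The tools were R 4.3.3 (edgeR 4.0.16, DESeq2 1.42.0) and Python 3.11.15 (scipy 1.17.1, pandas 2.3.3, numpy 2.4.6, matplotlib 3.10.9).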

Additional observations from a re-analysis of the deposited data

Results flagged for a closer look

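The share of insertions in the member genes was compared within 9 subgroups of 4 to 10 samples, by organ or by form of the sample name. In 1 of them, the 6 mesenteric lymph nodes of PB tumours, a sample stood far from the others: PB tumour 14 had 0.717%, and the nearest other had 0.519%, a gap of 0.692 of the whole range. Chance flags about 1 in 20 such subgroups.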

How the results depend on the processing

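Member shares moved by less than 1 SD under every alternative except the one without Elmo1 and Arhgap15, chosen after seeing the data, which gave 0.344% in PB tumours and 0.208% in SB tumours. With all chromosomes kept they were 0.436% and 0.201% in tumours and tails of PB and 0.252% and 0.120% in those of SB. Against 147 genes called in PB, the calls numbered 88 with DESeq2, 62 with no filter, 33 with joined names alone and 1 with presence per sample and gene. The 3 members called became 1 with no filter (Elmo1), 0 with joined names and 0 with presence. Cd74 was also lost with the name form as a block (adjusted p = 0.0551, 0.00812 to 0.866 over 10 alternatives), DESeq2 gave it no adjusted p, and it had too few insertions for the filter of at least 30. Against 9 genes called in SB, 2 were called with DESeq2, 27 with all chromosomes and 0 with presence, and 1 member, Arhgap15, was called with at least 30 insertions, with at least 10 reads and with all chromosomes. For the difference between systems, 1 gene was called with no filter and 1 with at least 10 reads, no member.

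The genes above expectation numbered 1121 and 282 in tumours and tails of PB and 95 and 43 in those of SB. In the same order, the exact Poisson test called 646, 83, 33 and 13. Benjamini-Hochberg adjustment called 2852, 879, 307 and 167, presence called 497, 95, 16 and 9, and at least 10 reads called 480 in PB tumours. Of the 13 members in PB tumours, 5 stayed with presence and 4 with at least 10 reads. Of the 2 in PB tails, 0 stayed with the exact test, 1 with presence and 0 with at least 10 reads. In SB tumours, 4 members were called with Benjamini-Hochberg adjustment, 0 with presence and 0 with at least 10 reads. Fold changes of members that were not called turned sign for Arhgap15 in PB (-0.27 with presence), Ptprj in PB (-0.53 with joined names), Dock2 in SB (0.14 with all chromosomes, 0.50 with joined names, 0.26 with the title numbers as a replicate block), Ripor2 in SB (-0.61 with that block) and Lyst in SB (-0.18 with TMM, -0.24 with DESeq2, -0.11 with at least 10 reads, -0.28 with presence, -1.21 with that block). Causes were not tested. The labels do not say what the numbers before the mouse's letter mean, and 3 such numbers in PB (5 tumours, 4 tails) and 3 in SB (4 tumours, 3 tails) hold both tissues. With them as a replicate block, chosen after seeing the data, 3 genes were called in PB and 1 in SB, and 0 members in either; only those samples then carry the comparison. Within each of the numbers the mean member share was higher in tumours, at 0.640% and 0.265% in PB and 0.394% and 0.198% in SB. The name form could not be a block in SB, where all tumours share a form. Short genes were expected to get under 1 insertion in a group, so no call says little.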
